A study of Mus musculus with 16 samples.

Results

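Padi2 encodes peptidylarginine deiminase 2, and it is described here in primary mouse astrocytes as 1 of the 16707 genes in the deposited table of log2 CPM, where CPM is the number of reads of a gene scaled to a common library size. It was picked because its level was lower both after stimulation with lipopolysaccharide (LPS) plus interferon gamma (IFNγ) and in cells lacking Nlrx1. Its responses, genotype differences and the difference between its responses, which is arithmetic on the same levels, are therefore given as a description. Tests were run on the division of reads among transcripts, the covariation with Gfap and Mbp, and other genes. Any p-value printed for the difference between the responses of Padi2 is not independent evidence.

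RNA was sequenced from cultures of 4 WT and 4 Nlrx1-/- litters of C57BL/6J mice, and NLRX1 is a mitochondrial member of the NOD-like receptor family. Brain cells of P6 pups were selected with beads against the astrocyte surface antigen ACSA-2 and grown in serum-free medium with heparin-binding EGF. From each litter 1 well received vehicle (water) and another LPS at 500 ng/mL with IFNγ at 10 ng/mL, both for 24 h, which gave 16 libraries in 4 conditions of 4. A replicate is a set of pups pooled by litter, the knockout is not restricted to astrocytes, and each litter has 1 genotype, so a genotype difference rests on 4 litters against 4 and carries whatever else set those litters apart.

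PAD2 is a calcium-dependent enzyme that converts arginine residues in proteins to citrulline, which removes their positive charge. In the brain it is best known from oligodendrocytes and astrocytes, where myelin basic protein, the intermediate filament proteins GFAP and vimentin, and histones are among its substrates. The protein-bound citrulline it makes is distinct from the free citrulline that nitric oxide synthases release from arginine.

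Padi2 lies on the plus strand at chr4:140633647-140679897 (GRCm39, GENCODE M39), and its main transcript has 16 exons. The 226 bases of RefSeq promoter sequence that end 1 base before this start are shown because Padi2 differed between vehicle and stimulated wells, and capitals mark the matches to the promoter motifs searched. The table gives the promoter for GRCm38.p6, and it was placed at chr4:140633421-140633646 on the plus strand of GRCm39 by an exact match.

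Padi2 promoter: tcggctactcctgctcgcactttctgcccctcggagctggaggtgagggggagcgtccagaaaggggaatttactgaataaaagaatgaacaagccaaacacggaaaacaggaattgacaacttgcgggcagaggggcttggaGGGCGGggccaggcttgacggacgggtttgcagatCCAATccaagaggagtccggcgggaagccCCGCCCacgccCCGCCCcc

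On both strands this window held 3 GC boxes (GGGCGG), a motif present in 29.4% of 27025 promoters of the same length. It held 1 CCAAT box (CCAAT), present in 32.3% of promoters, and 0 TATA boxes (TATAAA), present in 11.5%. It held 0 matches to the gamma-activated site TTCNNNGAA, to the interferon-stimulated response element (GAAA, any 2 bases, GAAA) and to the NF-κB motif (GGG, any 2 bases, TTTCC), which were present in 6.54%, 2.78% and 1.15% of promoters. The matches do not overlap each other, and they are matches of letters only.

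Salmon assigned 27259420 to 43752903 reads to each library, with a median of 35554625. Nlrx1 itself was between 4.08 and 4.44 log2 CPM in the WT libraries and between 1.09 and 2.96 in the Nlrx1-/- libraries, so the genotypes did not overlap. The part of Nlrx1 that was removed is not given in the sources used here. Of the astrocyte markers, Aldh1l1 was between 9.40 and 10.20 log2 CPM in all libraries. Of 8 microglia markers, 6 were not in the table (Aif1, Cx3cr1, Csf1r, Tmem119, C1qa and Itgam) and had at most 16 reads each in any library. Oligodendrocyte genes were present: the summed level of 12 myelin and oligodendrocyte markers ranged from 157 to 904 TPM, a level per unit of transcript length, and that of 10 astrocyte markers from 2692 to 6867 TPM. Much of the myelin sum was Cnp: in stimulated Nlrx1-/- libraries, which held the lowest sum, Cnp was 143 to 273 TPM and Mbp 0.887 to 32.8 TPM. In bulk RNA, fewer cells of a type and less RNA per cell cannot be told apart.

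Padi2 was highest in WT vehicle, at 4.21, 5.26, 5.12 and 6.14 log2 CPM in litters 1 to 4. In WT LPS+IFNγ it was 1.79, 2.98, 3.03 and 3.96 log2 CPM in the same litters. Each WT litter was lower after stimulation, and the highest stimulated WT library lay below the lowest WT vehicle library.

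In Nlrx1-/- vehicle, Padi2 was 4.07, 1.23, 4.73 and 2.16 log2 CPM in litters 1 to 4. In Nlrx1-/- LPS+IFNγ it was 0.82, -1.54, 1.67 and -0.94 log2 CPM. Each Nlrx1-/- litter was again lower after stimulation, but the Nlrx1-/- litters were so far apart that stimulated litter 3 lay above vehicle litter 2.

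**Figure D1:**
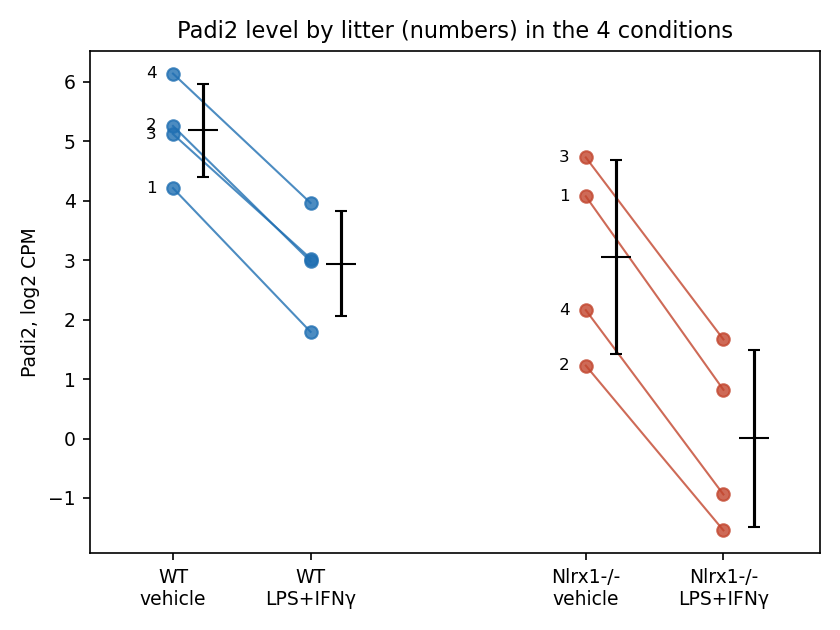
Padi2 level in log2 CPM (vertical axis) in the 4 conditions, with 1 point per library, a line joining the wells of a litter, the litter number beside its vehicle point, and black marks for the mean and SD of 4 litters. All 8 lines go down, and Nlrx1-/- litters 2 and 4 start at 1.23 and 2.16, well below the other 6 litters.

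From high to low, the mean level was 5.18 ± 0.79 log2 CPM (SD, n = 4) in WT vehicle, 3.05 ± 1.63 (SD, n = 4) in Nlrx1-/- vehicle, 2.94 ± 0.89 (SD, n = 4) in stimulated WT and 0.00 ± 1.50 (SD, n = 4) in stimulated Nlrx1-/- astrocytes. In this order, Nlrx1-/- vehicle and WT LPS+IFNγ stood apart by less than either SD. On the length-adjusted scale the means were 17.7 ± 9.41, 5.30 ± 4.81, 3.28 ± 1.91 and 0.530 ± 0.507 TPM (SD, n = 4 each) in the same order.

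These levels rest on 582 to 2610 reads in WT vehicle and 96 to 587 after stimulation. Nlrx1-/- vehicle libraries had 85 to 979 Padi2 reads, and the stimulated ones had 58, 8, 114 and 16 in litters 1 to 4. The 8 reads of litter 2 have an exact 95% Poisson interval of 3.45 to 15.8 reads, which covers counting error only, so the lowest level is known loosely.

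The response of Padi2, LPS+IFNγ minus vehicle on the log2 CPM scale, was -2.42, -2.28, -2.09 and -2.18 in WT litters 1 to 4. In Nlrx1-/- litters 1 to 4 it was -3.25, -2.77, -3.06 and -3.10. The levels of the Nlrx1-/- litters differed widely, whereas their responses lay close together.

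Expressed as the share of the vehicle level left after stimulation, 18.7, 20.6, 23.4 and 22.1% remained in the WT litters by CPM. In the Nlrx1-/- litters 10.5, 14.7, 12 and 11.7% remained. By TPM the shares were 16.2, 17.2, 19.6 and 19.3% in WT and 9.02, 10.9, 10.7 and 9.15% in Nlrx1-/-. On both scales every WT litter kept a larger share of its Padi2 than every Nlrx1-/- litter.

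In the edgeR fit on counts, with litters as blocks, the log2 difference of LPS+IFNγ from vehicle was -2.25 (standard error 0.09) in WT, which is 4.74-fold lower. It was -3.18 (standard error 0.11) in Nlrx1-/-, which is 9.03-fold lower. Over all 16062 genes tested, 19.8% were called lower and 24.3% higher after stimulation in WT, and 23.9% lower and 25.6% higher in Nlrx1-/-, at a Benjamini-Hochberg adjusted p below 0.05. Since Padi2 was picked on these contrasts, its place among the genes that fell is no finding.

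The responses of the 2 genotypes did not overlap, the smallest decrease in Nlrx1-/- (litter 2) being larger than the largest in WT (litter 1). The 4 WT responses averaged -2.24 ± 0.14 (SD) and the 4 Nlrx1-/- responses -3.05 ± 0.20 (SD), a difference of -0.80.

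Across all genes, the interaction (Nlrx1-/- response minus WT response) of Padi2 was -0.93 (standard error 0.14) in edgeR, with an unadjusted p of 5.09e-05 that ranked 2 of 16062 and an adjusted p of 0.212. By that test it was not called. For the interaction edgeR called 0% of genes, with 2483 genes at an unadjusted p below 0.05, while DESeq2 called 296 genes and limma-voom 0. DESeq2 called Padi2 among them, at -0.93 with an adjusted p of 0.00616. With 1 litter left out in turn the edgeR value ran from -1.01 to -0.86, and only without Nlrx1-/- litter 3 was it called, at -1.01 (edgeR adjusted p = 0.0371). Without Nlrx1-/- litters 2 and 4, which hold the fewest Padi2 reads, it was -0.93 (edgeR adjusted p = 0.505), an alternative added after the data were seen. The interaction is arithmetic on the levels for which the gene was picked, so these p-values place Padi2 among other genes and are not independent evidence.

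**Figure D2:**
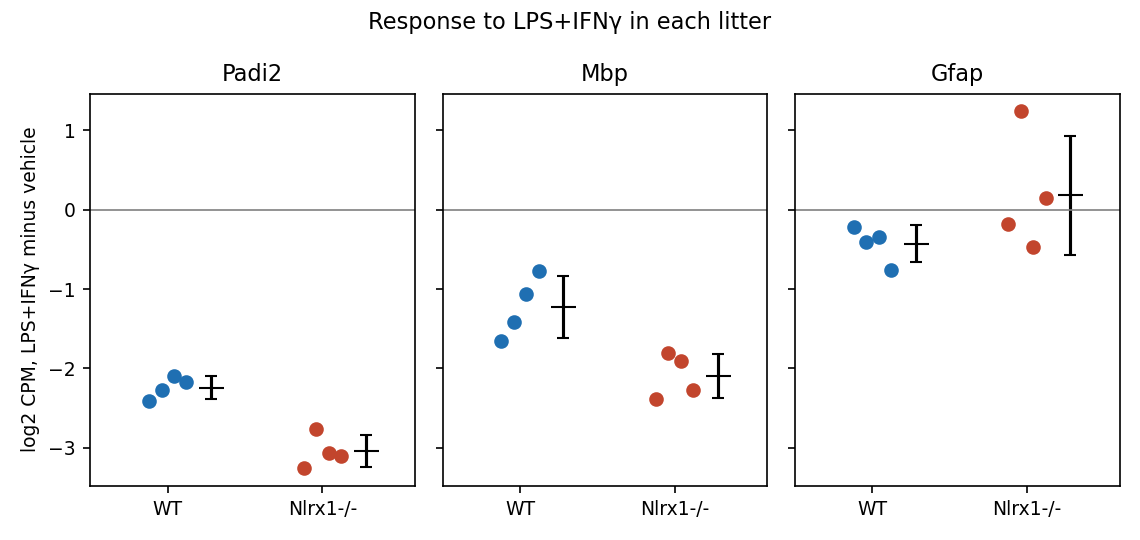
Response in each litter, as log2 CPM in LPS+IFNγ minus vehicle (vertical axis), for Padi2, Mbp and Gfap in WT (blue) and Nlrx1-/- (red), with black marks for mean and SD of 4 litters and a grey line at 0. The genotypes do not overlap for Padi2 (means -2.24 and -3.05) or Mbp (-1.23 and -2.09), and they do for Gfap.

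Between genotypes, the vehicle levels of Padi2 overlapped. Nlrx1-/- litter 3, at 4.73 log2 CPM, lay above WT litter 1, at 4.21, and the low mean of the Nlrx1-/- group came mostly from litters 2 and 4. The fitted log2 difference, Nlrx1-/- minus WT, was -1.71 (standard error 0.71) in vehicle, and it ran from -2.37 to -1.29 when 1 litter was left out in turn. In vehicle edgeR called 0% of genes lower and 0% higher between genotypes, with 3135 genes at an unadjusted p below 0.05 and a lowest adjusted p of 0.0510, that of Nlrx1 itself. DESeq2 called 735 genes there and limma-voom 1. The lower Nlrx1-/- level in vehicle was thus one of the group mean and not of every litter.

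Under LPS+IFNγ the genotypes did not overlap for Padi2, but the gap was narrow: the highest Nlrx1-/- library was at 1.67 log2 CPM and the lowest WT library at 1.79. The fitted difference was -2.63 (standard error 0.79), with values from -3.41 to -2.18 when 1 litter was left out. Over all genes, 2.25% were called lower and 2.47% higher in stimulated Nlrx1-/- astrocytes, 758 genes in all. This count was unstable: it was 2438 with DESeq2, 386 with limma-voom and 2158 with a block by replicate number. That block pairs WT and Nlrx1-/- litters of the same number and is not a block by litter. With 1 litter left out the count was 1 to 3 without WT litter 2, 3 or 4 and 1328 without WT litter 1. It was 213, 11, 3289 and 4 without Nlrx1-/- litters 1 to 4.

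Nlrx1-/- litters 2 and 4 stood apart in other genes as well. In vehicle, Nlrx1 was 2.24, 2.96, 1.84 and 2.85 log2 CPM in Nlrx1-/- litters 1 to 4, so the litters with the least Padi2 had the most Nlrx1 reads, though fewer than any WT litter. Aqp4, the astrocyte water channel, was 9.61, 8.18, 9.89 and 9.04 log2 CPM in the same libraries, and between 9.71 and 10.34 in WT vehicle. Gpr17, a receptor of committed oligodendrocyte precursors, was 7.52, 5.35, 7.65 and 6.15, and between 7.47 and 7.69 in WT vehicle. Litters 2 and 4 were thus low in Padi2, Aqp4 and Gpr17 alike.

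Other lineage genes did not follow this order. Olig2, a transcription factor of the oligodendrocyte lineage, was 9.31, 9.54, 8.56 and 9.42 log2 CPM in Nlrx1-/- vehicle litters 1 to 4, lowest in litter 3. Slc1a3, which encodes the astrocyte glutamate transporter GLAST, lay between 11.05 and 11.50 log2 CPM in all 16 libraries. The part of cell composition in the level of Padi2 was not tested.

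**Figure D3:**
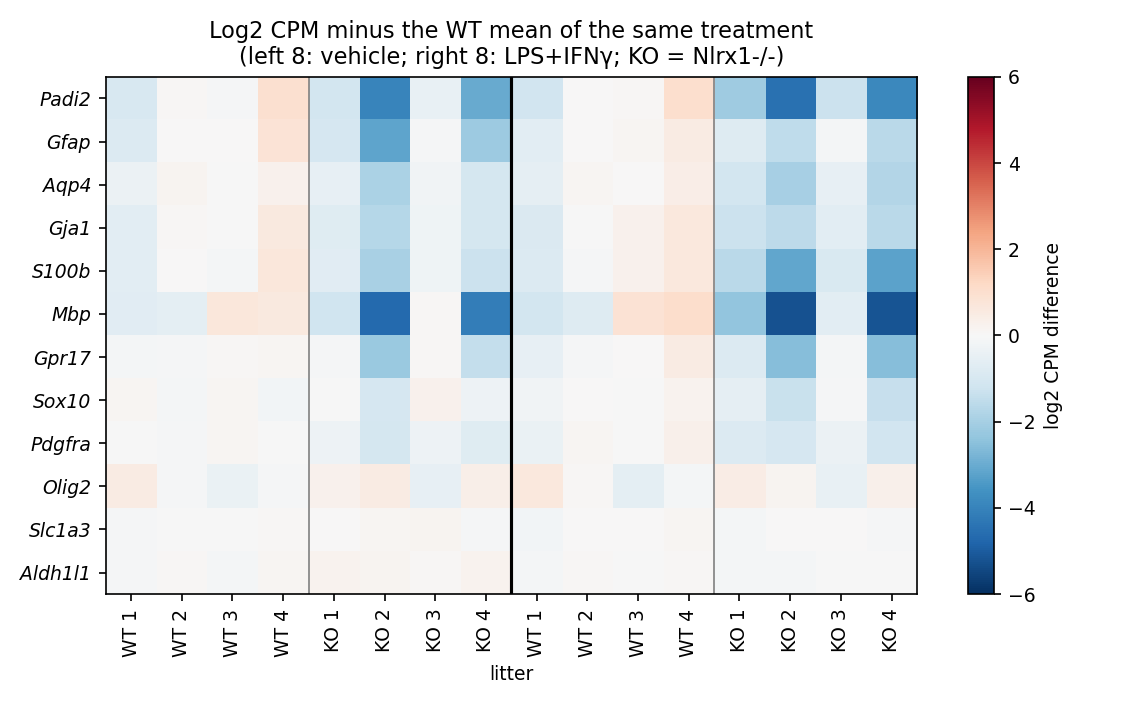
Log2 CPM of Padi2 and 11 marker genes in each library minus the WT mean of the same treatment (colour, blue lower and red higher), with vehicle libraries on the left and LPS+IFNγ on the right. Litters 2 and 4 of Nlrx1-/- are blue for Padi2, Gfap and Mbp, and pale for Slc1a3 and Aldh1l1.

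Gfap, the intermediate filament of astrocytes and a substrate of PAD2, was 9.70, 10.56, 10.55 and 11.34 log2 CPM in WT vehicle litters 1 to 4, and 9.48, 10.15, 10.21 and 10.58 in WT LPS+IFNγ. In Nlrx1-/- it was 9.51, 7.37, 10.45 and 8.35 in vehicle and 9.33, 8.61, 9.98 and 8.50 in LPS+IFNγ. The litters with little Padi2 also had little Gfap, in both genotypes and both treatments.

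Gfap did not share the response of Padi2. Its log2 difference after stimulation was -0.43 (standard error 0.21, edgeR adjusted p = 0.118) in WT and 0.16 (standard error 0.21, edgeR adjusted p = 0.564) in Nlrx1-/-. It was lower in 4 of 4 WT litters and in 2 of 4 Nlrx1-/- litters, with an increase of 1.24 in Nlrx1-/- litter 2. Between genotypes its difference was -1.31 (standard error 0.53, edgeR adjusted p = 0.20) in vehicle and -0.94 (standard error 0.53, edgeR adjusted p = 0.253) in LPS+IFNγ.

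Mbp, which encodes myelin basic protein, was 6.47, 6.56, 7.84 and 7.73 log2 CPM in WT vehicle litters 1 to 4 and 4.81, 5.14, 6.78 and 6.96 in WT LPS+IFNγ. In Nlrx1-/- it was 5.93, 2.49, 7.22 and 3.0 in vehicle and 3.55, 0.69, 5.31 and 0.73 in LPS+IFNγ. It was lower after stimulation in all 8 litters, and lowest in Nlrx1-/- litters 2 and 4.

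The Mbp response was -1.22 (standard error 0.13, edgeR adjusted p = 3.93e-05) in WT and -2.21 (standard error 0.16, edgeR adjusted p = 1.58e-06) in Nlrx1-/-. As for Padi2, the litter responses of the genotypes did not overlap, with a difference of -0.86, and edgeR did not call the interaction (-0.98, standard error 0.21, adjusted p = 0.212). Between genotypes the Mbp difference was -1.50 (standard error 1.01, edgeR adjusted p = 0.422) in vehicle and -2.48 (standard error 1.06, edgeR adjusted p = 0.140) in LPS+IFNγ.

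Covariation was measured across the 8 litters within each treatment, after centring each genotype on its own mean so that neither the genotype nor the stimulation enters. Exact two-sided permutation tests paired values in 576 ways within genotypes, and p-values were adjusted over 6 relations. Where 2 Nlrx1-/- litters are left out, the p-value is not adjusted, and the smallest that the remaining pairings allow is 0.0208. Both genes were named for this comparison with results of these data known.

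For Gfap the relation to Padi2 was close at both treatments. In vehicle, Pearson's r was 0.991 (permutation p = 0.00174, adjusted p = 0.00521) and Spearman's ρ 0.976 (permutation p = 0.00347, adjusted p = 0.0104) over 8 litters. Without Nlrx1-/- litters 2 and 4, the farthest from the median of Padi2, r was 0.979 (permutation p = 0.0208). In LPS+IFNγ, r was 0.970 (permutation p = 0.00521, adjusted p = 0.0104) and ρ 0.929 (permutation p = 0.0104, adjusted p = 0.0208), and r was 0.984 (permutation p = 0.0208) without the same litters. Without WT litter 1, r in LPS+IFNγ was 0.964 and its adjusted permutation p 0.0625. The size of the relation in levels was thus much the same without the low litters.

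The responses of Padi2 and Gfap were not shown to go together. Their r was 0.575 (permutation p = 0.281, adjusted p = 0.281) and ρ 0.357 (permutation p = 0.465, adjusted p = 0.465) over 8 litters, and r was 0.50 (permutation p = 0.729) without Nlrx1-/- litters 1 and 4. With 1 litter left out in turn, r ran from -0.34 to 0.77.

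For Mbp the relation in vehicle rested on the low litters. There r was 0.933 (permutation p = 0.0278, adjusted p = 0.0333) and ρ 0.905 (permutation p = 0.0521, adjusted p = 0.0625), while without Nlrx1-/- litters 2 and 4 r was 0.687 (permutation p = 0.271). In LPS+IFNγ, r was 0.942 (permutation p = 0.00174, adjusted p = 0.00521) and ρ 0.976 (permutation p = 0.00347, adjusted p = 0.0104), and without those litters r was 0.830 (permutation p = 0.0208). The vehicle relation also missed the threshold without WT litter 1 or 4 or any single Nlrx1-/- litter (r from 0.893 to 0.948, adjusted permutation p up to 0.0729), and the LPS+IFNγ relation without WT litter 1 (r = 0.946, adjusted permutation p = 0.0667) or WT litter 4 (r = 0.943, adjusted permutation p = 0.0521). In WT vehicle the orders differed: litter 4 led in Padi2 and litter 3 in Mbp.

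The responses of Padi2 and Mbp had an r of 0.804 (permutation p = 0.0139, adjusted p = 0.0208) and a ρ of 0.833 (permutation p = 0.0156, adjusted p = 0.0234) over 8 litters. Without Nlrx1-/- litters 1 and 4, r was 0.707 (permutation p = 0.0833), and without WT litter 1 or Nlrx1-/- litter 1, 2 or 4 the adjusted permutation p was between 0.0583 and 0.0917. On log2 CPM made from the summed expected counts in place of the deposited values, r was 0.574 (adjusted permutation p = 0.20), so this relation depended on how the level was computed.

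**Figure D4:**
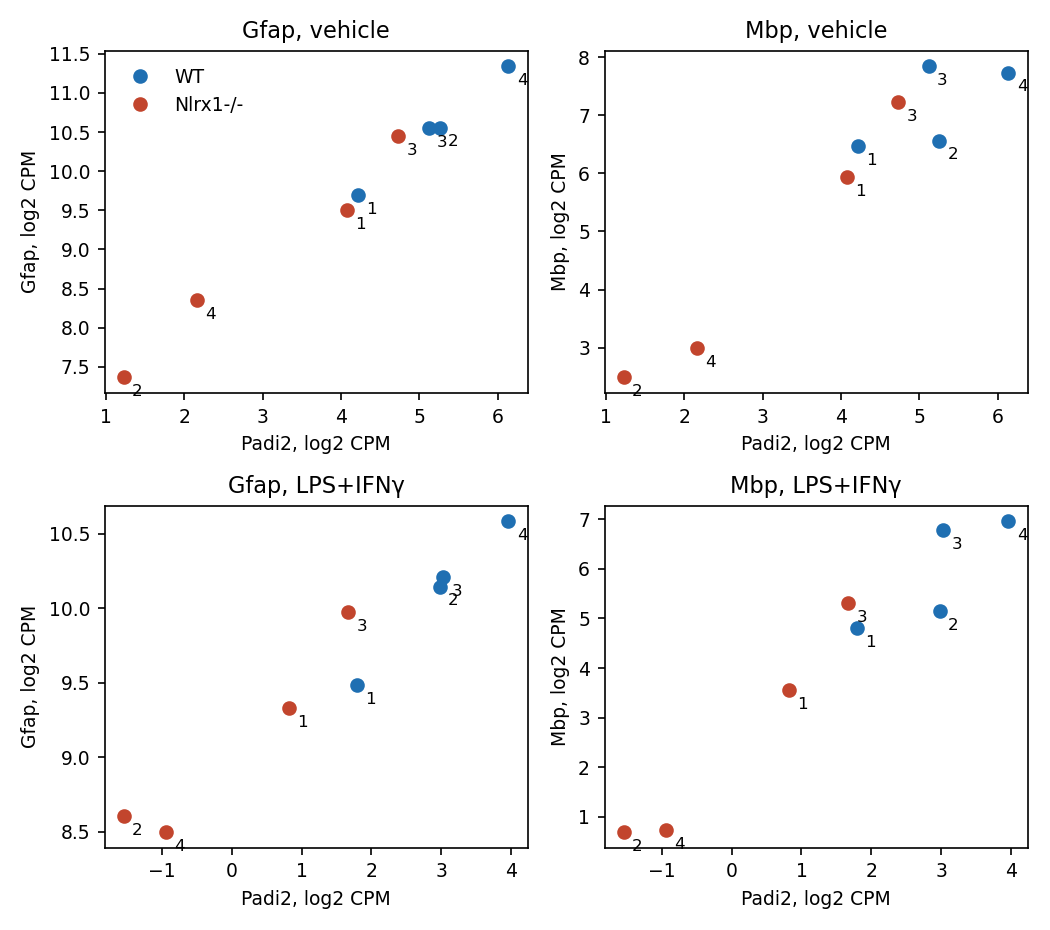
Gfap (left) and Mbp (right) against Padi2, all in log2 CPM, in vehicle (top) and LPS+IFNγ (bottom), with 1 point per library labelled by litter, WT in blue and Nlrx1-/- in red. Gfap follows Padi2 closely within each genotype (r = 0.991 and 0.970 after centring), and Nlrx1-/- litters 2 and 4 lie far below the rest for Mbp.

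Among 12736 genes with a mean of at least 1 CPM, the 8 whose log2 CPM was most like Padi2 over the 16 libraries were Arhgef26, Aqp4, Pla2g7, Psd2, Hey1, Eci2, Gsn and Emp1, with r from 0.992 down to 0.984. These encode a guanine nucleotide exchange factor, the astrocyte water channel, platelet-activating factor acetylhydrolase, an Arf exchange factor, a Notch-responsive repressor, an enoyl-CoA isomerase, the actin-severing protein gelsolin and an epithelial membrane protein. All 8 had negative fitted responses, from -0.39 for Eci2 to -1.15 for Psd2 in WT and from -0.54 for Eci2 to -1.70 for Psd2 in Nlrx1-/-, smaller in size than those of Padi2. They were picked for their likeness, so their directions are a description, and the libraries share treatment, genotype and litter.

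After centring by the 4 conditions, which leaves only differences between litters, the 5 most alike included Acsf2, Fbxo2, Arhgef26 and Aqp4, with r from 0.983 down to 0.974. Arhgef26 and Aqp4 stood on both lists. On this measure Gfap ranked 38 with r = 0.950 and Mbp 81 with r = 0.936, whereas over the 16 libraries as they are Gfap ranked 1712 with r = 0.768 and Mbp 327 with r = 0.933. Such values were common, since 601 genes had an r above 0.9 with Padi2 before centring and 262 after it.

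The reads of Padi2 divided between 2 RefSeq transcripts. The main one, NM_008812.2, held 97.3 ± 1.76% of Padi2 TPM in vehicle and 96.9 ± 4.21% after stimulation in the WT litters (SD, n = 4 each). In the Nlrx1-/- litters it held 100 ± 0% and 98.7 ± 2.58% (SD, n = 4 each). The change with stimulation was -0.85 percentage points (two-sided exact sign-flip permutation p = 0.5625 over 8 litters), and Nlrx1-/- minus WT was 2.22 points (two-sided exact permutation p = 0.171). With 1 litter left out these ran from -1.49 to 0.07 points, above 0 only without WT litter 4, and from 1.41 to 3.04 points. The sign-flip test could not decide whether the share changed, because Nlrx1-/- litters 1, 2 and 4 were at 100% in both wells. Their change was 0, which left too few litters to flip for that test to reach the threshold. By the shares alone, the main transcript held at least 91.1% of Padi2 TPM in every library. The lower level of Padi2 therefore stood mostly in its main transcript.

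The other 4 members of the family, Padi1, Padi3, Padi4 and Padi6, were not in the deposited table and did not pass the count filter. Padi4, the nuclear deiminase of granulocytes, had at most 6 reads in a library. Padi1 and Padi3, deiminases of the epidermis and hair follicle, had at most 3 and 4 reads, and Padi6, of the oocyte, at most 2. Padi2 was the only family member above this level, and no difference in the others was detectable at this depth.

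These 4 genes and Rcc2 are the 5 annotated protein-coding genes before Padi2 on chromosome 4, and the 5 after it are Sdhb, Atp13a2, Mfap2, Crocc and Necap2. The 6 tested neighbours moved in both directions. Sdhb, a subunit of respiratory complex II, rose by 0.90 in WT and 0.53 in Nlrx1-/- on the log2 scale (edgeR adjusted p = 1.11e-06 and 4.05e-05). Mfap2, a microfibril protein, fell by 0.74 and 0.82 (edgeR adjusted p = 0.000181 and 6.94e-05), and Crocc, of the ciliary rootlet, fell by 0.30 and 0.56 (edgeR adjusted p = 0.0113 and 0.000207).

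The other 3 tested neighbours changed after stimulation in Nlrx1-/- by this test and not in WT, with the interaction called for none. Atp13a2 was at -0.17 and -0.42, Rcc2 at 0.05 and 0.22 and Necap2 at 0.04 and 0.30 in WT and Nlrx1-/-. Rcc2 was also higher in stimulated Nlrx1-/- than WT astrocytes, by 0.51 (edgeR adjusted p = 0.0403).

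**Figure D5:**
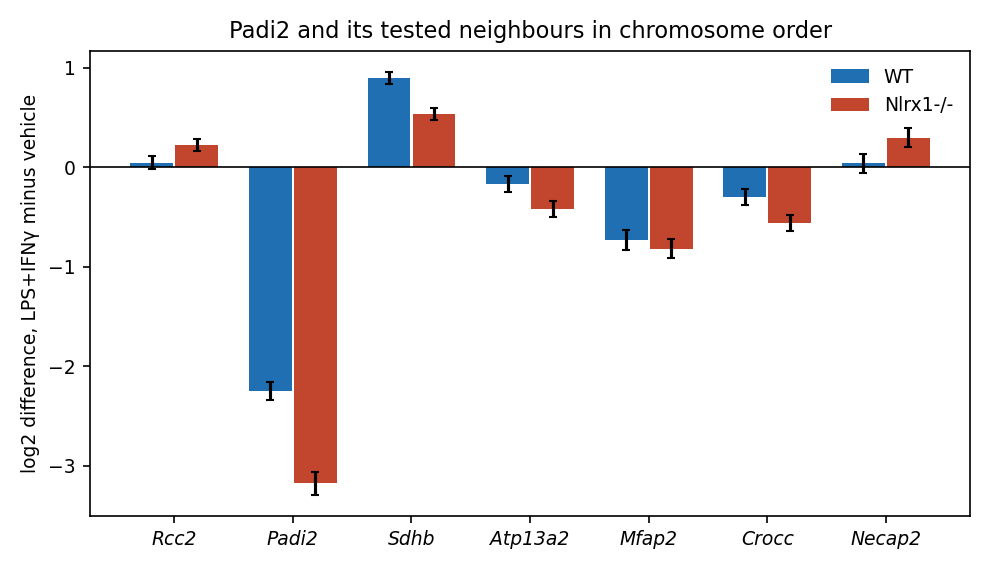
Fitted log2 difference of LPS+IFNγ from vehicle (bars, with standard errors) for Padi2 and its 6 tested neighbours in chromosome order, in WT (blue) and Nlrx1-/- (red). Padi2, at -2.25 and -3.18, is between neighbours of near 0 (Rcc2) and positive (Sdhb) differences.

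Among 10 genes of known PAD2 substrates, 5 rose and 1 fell after stimulation in each genotype, with a median of 0.23 in WT and 0.18 in Nlrx1-/- against -0.01 and -0.03 over all genes. The gene that fell in both was Mbp. Over all genes, 24.3% were called higher and 19.8% lower in WT, and 25.6% and 23.9% in Nlrx1-/-. Cxcl10, an interferon-induced chemokine, rose by 10.71 in WT and 9.37 in Nlrx1-/-, and Pkm, of glycolysis, by 0.95 and 0.61. Vim, another astrocyte filament gene, was at -0.06 and 0.10. Between genotypes edgeR called 0 of the 10 in vehicle and 0 in LPS+IFNγ, with 5 and 2 at an unadjusted p below 0.05 and 4 and 0 called by DESeq2. For these comparisons edgeR called 0% of all genes in vehicle, and 2.25% lower and 2.47% higher in LPS+IFNγ.

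Of 9 tested genes of arginine, free citrulline and nitric oxide, 4 rose and 2 fell in each genotype, with medians of 0.21 in WT and 0.48 in Nlrx1-/-. Beside these counts, 24.3% of all genes were called higher and 19.8% lower in WT, and 25.6% and 23.9% in Nlrx1-/-. Nos1 and Nos2, which make nitric oxide and free citrulline, rose by 4.60 and 3.23 in WT and by 4.85 and 4.14 in Nlrx1-/-. Nos2 had few reads, 0 to 18 per library in WT vehicle and 16 to 60 after stimulation, and 1 to 8 and 27 to 67 in Nlrx1-/-. Slc7a1, an arginine importer, rose by 1.14 and 1.93, and Slc7a2, a related importer, fell by 0.90 and 0.96. Nos1, Nos2 and Slc7a1 thus rose in the same wells in which Padi2 was lower.

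Under LPS+IFNγ, 2 of these 9 were higher and 1 lower in Nlrx1-/- than in WT, against 2.47% of all genes called higher and 2.25% lower. They were Slc7a1 by 1.93, Ass1 (argininosuccinate synthase) by 0.90, and Ddah2, which degrades methylarginines, at -0.36 (edgeR adjusted p = 0.0426, 0.0499 and 0.0403). In vehicle edgeR called 0 of the 9 and 0% of all genes, with 2 of the 9 at an unadjusted p below 0.05 and 0 called by DESeq2.

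Protein arginine methyltransferases modify the same residue as PAD2. Of 9 tested, 2 rose and 0 fell in WT (Prmt1 at 0.48 and Carm1 at 0.27), and 6 rose and 2 fell in Nlrx1-/-, with medians of 0.13 and 0.23. Among all genes, 24.3% were called higher and 19.8% lower in WT, and 25.6% and 23.9% in Nlrx1-/-. The interaction was called for 0 of the 9, so no difference between the responses of the genotypes was shown. The largest called change was that of Prmt8 in Nlrx1-/-, at -2.51 (standard error 0.73, edgeR adjusted p = 0.0158). It rests on few reads, 8 to 27 per library in Nlrx1-/- vehicle and 0 to 7 after stimulation. Under LPS+IFNγ, Prmt3 and Prmt5 were higher in Nlrx1-/- by 0.48 and 0.51, and Prmt2 was at -0.25 (edgeR adjusted p = 0.0477, 0.0403 and 0.0499). In that comparison 2.47% of all genes were called higher and 2.25% lower.

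PAD2 needs calcium, and of 14 tested genes of calcium stores and entry 4 rose and 3 fell in each genotype, with medians of 0.01 in WT and 0.08 in Nlrx1-/-. All genes together had 24.3% called higher and 19.8% lower in WT, and 25.6% and 23.9% in Nlrx1-/-. Itpr1, a calcium release channel of the endoplasmic reticulum, rose by 1.18 in WT and 1.67 in Nlrx1-/-, and Atp2b4, a plasma membrane calcium pump, fell by 0.90 and 0.94. Stim1, the calcium sensor of the stores, fell by 0.32 and 0.51. Under LPS+IFNγ, Itpr1 was higher by 0.53 and Stim1 lower, at -0.48, in Nlrx1-/- than in WT (edgeR adjusted p = 0.0414 and 0.0477). There 2.47% of all genes were called higher and 2.25% lower.

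Of 11 tested myelin and oligodendrocyte genes, 1 rose and 5 fell in WT, and 0 rose and 7 fell in Nlrx1-/-, with medians of -0.64 and -1.47. The shares over all genes were 24.3% higher and 19.8% lower in WT, and 25.6% and 23.9% in Nlrx1-/-. Mag, a myelin adhesion protein, fell by 0.86 in WT and 1.91 in Nlrx1-/-, and Ugt8a, which makes the galactolipids of myelin, by 0.87 and 1.47. Aspa, which breaks down N-acetylaspartate, rose by 0.78 in WT. Between genotypes under LPS+IFNγ the 11 had a median of -1.90 with all 11 below 0. There edgeR called 0 of them, with 8 at an unadjusted p below 0.05 and 2 called by DESeq2. Of all genes edgeR called 2.25% lower and 2.47% higher in that comparison.

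Of 6 oligodendrocyte precursor genes, 0 rose and 4 fell in WT and 5 fell in Nlrx1-/-, where 19.8% and 23.9% of all genes fell. Their medians were -0.35 and -0.73. Pdgfra, the growth factor receptor of these cells, fell by 1.34 and 1.58, and it was lower in stimulated Nlrx1-/- than WT astrocytes, at -0.84 (edgeR adjusted p = 0.0403). The summed level of the 6 ranged from 1547 to 3177 TPM, and most of it was Olig1, at 1158 to 2572 TPM. In Nlrx1-/- vehicle litters 1 to 4 the sum was 2811, 3177, 2191 and 2974 TPM, highest in the litters that were low in Gpr17.

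Of 10 astrocyte markers, 3 rose and 4 fell in WT and 2 rose and 5 fell in Nlrx1-/-, with medians of -0.29 and -0.45, where 24.3% of all genes were called higher and 19.8% lower in WT, and 25.6% and 23.9% in Nlrx1-/-. Aldh1l1 rose by 0.59 and 0.35 and Slc1a3 by 0.24 and 0.14, whereas Aqp4 fell by 0.84 and 1.28 and Gja1, the gap junction protein connexin 43, by 0.97 and 1.32. S100b, a calcium-binding protein, fell by 0.95 and 2.09. Changes in both directions are also what all genes together showed.

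Under LPS+IFNγ, all 10 astrocyte markers were below 0 in Nlrx1-/- minus WT, with a median of -0.77. Of these, 7 were at an unadjusted p below 0.05 in edgeR, and DESeq2 called 5. After adjustment edgeR called 3, namely S100b at -2.0, Gja1 at -1.33 and Aldoc, of glycolysis, at -0.62 (edgeR adjusted p = 0.0450, 0.0477 and 0.0463). Aqp4 was at -1.26 (edgeR adjusted p = 0.0513). All these edgeR calls between genotypes were near the threshold. Of the 87 listed genes tested, 13 were called under LPS+IFNγ, where 2.25% of all genes were called lower and 2.47% higher. This number of listed genes was 0 without WT litter 2, 3 or 4 or Nlrx1-/- litter 2 or 4. It was 1 without Nlrx1-/- litter 1, 22 without WT litter 1 and 39 without Nlrx1-/- litter 3. In vehicle 0 of the 87 and 0% of all genes were called by edgeR. Of the 87, 27 were at an unadjusted p below 0.05, 6 were called by DESeq2, and 15 by edgeR without Nlrx1-/- litter 3.

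Markers of further cell types moved in both directions or were scarce. Summed neuron markers ranged from 338 to 367 TPM in WT vehicle and 319 to 366 TPM in Nlrx1-/- vehicle, and from 330 to 420 and 374 to 430 TPM in LPS+IFNγ. Most of this sum was Map2, at 319 to 348 TPM in WT vehicle and 297 to 351 TPM in Nlrx1-/- vehicle. Tubb3 was 12.9 to 13.6 TPM in WT vehicle and 58.4 to 92.7 TPM in WT LPS+IFNγ. In Nlrx1-/- it was 5.62 to 14.5 and 57.3 to 82.8 TPM. Rbfox3, Syt1, Snap25 and Stmn2 were each at most 7.31 TPM. Of 6 neuron markers tested, 2 rose and 1 fell in WT and 3 rose and 2 fell in Nlrx1-/-. The fibroblast and mural markers summed to at most 27.4 TPM, with 0 of 6 rising and 1 falling in WT and 2 each way in Nlrx1-/-. For both lists the shares of all genes were 24.3% rising and 19.8% falling in WT, and 25.6% and 23.9% in Nlrx1-/-. Of 5 endothelial markers, Pecam1, Cldn5, Cdh5 and Tek were not in the table, and Kdr fell by 2.54 and 1.78. Of the microglia markers, P2ry12 rose by 2.27 in Nlrx1-/- and was at 1.78 in WT.

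The summed level of the ependymal markers ranged from 191 to 273 TPM in WT vehicle, 107 to 202 TPM in Nlrx1-/- vehicle, 117 to 163 TPM in WT LPS+IFNγ and 61.1 to 108 TPM in Nlrx1-/- LPS+IFNγ. Of 5 tested, 3 fell after stimulation in WT and 4 in Nlrx1-/-, where 19.8% and 23.9% of all genes fell, among them Foxj1, the regulator of motile cilia, by 0.51 and 0.61. Between genotypes edgeR called 0 of the 5 in vehicle, with 3 at an unadjusted p below 0.05 and 1 called by DESeq2. Under LPS+IFNγ it called 1 of the 5, Cfap126, a protein of motile cilia, at -0.81 (edgeR adjusted p = 0.0499). Of all genes it called 0% between genotypes in vehicle, and 2.25% lower and 2.47% higher under LPS+IFNγ. The part of these cells in the level of Padi2 was not tested.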

How the data were processed

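The authors assigned paired-end poly-A reads to the GRCm39 RefSeq transcriptome with Salmon 1.7.0 and deposited an expected count, a TPM value and an effective length for each of 129698 transcripts per library. The authors also deposited CPM values, which were not used here, and a gene table of log2 CPM made with limma 3.58.1 (voom) after length scaling, filtering and TMM normalization. Columns of the authors' comparisons were not used.

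Expected counts were summed over the 106430 transcripts whose accession was paired with a symbol (96.7 to 97.3% of reads, 35293 genes) and rounded. The 2 Padi2 transcripts were both paired. Levels, litter responses and covariation use the deposited log2 CPM. Differences were fitted with edgeR 4.0.16 in R 4.3.3 by its quasi-likelihood method, with offsets for transcript length, TMM normalization and filterByExpr with the minimum count at 10, which left 16062 genes for Benjamini-Hochberg adjustment at a threshold of 0.05. Responses and the interaction used the study's formula with litters as blocks within genotype, and genotypes were compared in a fit of 4 conditions without litter terms, since each litter has 1 genotype. Exact permutation tests, sums and plots used Python 3.11.15 with scipy 1.17.1, pandas 2.3.3, numpy 2.4.6 and matplotlib 3.10.9. The fits were tested on simulated data without differences between litters, which leaves the genotype fit untested under the litter spread seen here.

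Samples were grouped by their labels, which also state that the 2 wells of a replicate came from the same mice. On log2 CPM centred by condition, the paired wells correlated across genes with r of 0.0733 to 0.355, in each litter above the highest r with another litter of the genotype (-0.066 to 0.154). The methods and labels give the age as P6 and the vehicle as water, and other passages of the study differ on both.

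Genes named are Padi2, Nlrx1, Gfap, Mbp, the PADI family, called members and defining markers of the lists, the neighbours, and the 8 genes most like Padi2 over the libraries and 5 after centring by condition. A few genes that this rule selects are not reported here. Padi2, the lists and the tests were chosen with earlier results of these data known. Alternatives cover DESeq2 1.42.0, limma-voom, limma on the deposited values, RLE size factors, no length offsets, no count filter and leaving out each litter. They also cover responses without a litter block and genotype differences with a block by replicate number.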

Additional observations from a re-analysis of the deposited data

Results flagged for a closer look

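Of 28 groups of 4 samples examined for a sample far from the others, 3 held one, where chance gives about 5% of groups. Nlrx1 in Nlrx1-/- LPS+IFNγ had litter 3 at 1.09 log2 CPM and the others between 2.09 and 2.23, a gap of 0.879 of the group's range. The Nlrx1 response in WT had litter 1 at -0.36 and the others between -0.04 and 0.01, a gap of 0.859 of the range. The share of the main Padi2 transcript in Nlrx1-/- LPS+IFNγ was 94.8% in litter 3, from 114 reads, and 100% in the other 3 litters, so that the gap was the whole range (1).

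The litter responses to LPS+IFNγ did not overlap between genotypes for Padi2 (difference of means -0.80 on the log2 CPM scale) or Mbp (-0.86). With no overlap, an exact permutation test of 4 against 4 litters gives the smallest p of this design (two-sided p = 0.0286 for each). For Gfap, whose responses overlapped, the difference was 0.61 (same exact permutation test, p = 0.171). These p-values were not adjusted over the genes tested. The test was chosen after the data were seen. Padi2 had been picked on the levels it uses, and Mbp was named with results of these data known, so it is no independent evidence for either gene. All 4 Nlrx1-/- litters decreased more than all 4 WT litters for Padi2 and Mbp. The edgeR interaction across all genes did not call either one (adjusted p = 0.212 for each).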

How the results depend on the processing

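The directions of the Padi2 differences in level and of its interaction were the same under all alternatives run. The interaction passed the threshold with DESeq2 (-0.93), in the exact test of litter responses (-0.80), which was added after the data were seen, and without Nlrx1-/- litter 3, within a range of -1.01 to -0.86 over left-out litters. Padi2 was picked on the levels behind this difference, so none of these results is independent evidence for it. The number of listed genes called was 46 in WT and 61 in Nlrx1-/- for the response, and 29 and 40 with no replicate block. Between genotypes in vehicle it was 0, 6 with DESeq2 and 0 to 15 over left-out litters. Under LPS+IFNγ it was 13, and 28 with DESeq2, 5 with limma-voom, 21 with limma on the deposited values and 8 with no count filter. There it was 34 with a block by replicate number, and 0 to 39 over left-out litters. For the interaction it was 0, 7 with DESeq2 and 0 to 9 over left-out litters. Leaving out or adding a block changed no other count of listed genes by over 1.5 times. The block by replicate number moved the all-gene count under LPS+IFNγ from 758 to 2158.

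On log2 CPM from summed counts, r with Mbp was 0.929 in vehicle (adjusted permutation p = 0.0521) and 0.574 for the response (adjusted permutation p = 0.20). Over left-out litters r with Gfap ran from 0.983 to 0.998 in vehicle and 0.951 to 0.992 in LPS+IFNγ, and r with Mbp from 0.893 to 0.955, 0.903 to 0.966, and 0.735 to 0.911 for the response, with adjusted permutation p of up to 0.0917. With 7 litters fewer pairings exist, so the smallest p is larger. Depth limits the Nlrx1-/- LPS+IFNγ levels, which rest on as few as 8 reads. The cause of the other changes was not tested.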
